A study of Mus musculus with 230 samples.

Results

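RNA was compared in the nucleus accumbens (NAc) of mice that met cocaine for the first time and of mice that received saline in its place. The comparison took 11 of the 230 libraries of the series, selected as the NAc libraries whose labels gave saline for self-administration and a challenge injection. All mice were males of the strain C57BL/6J with saline as the self-administered solution. They went through 30 d of withdrawal and received a single intraperitoneal injection, with tissue taken 1 h later. In 5 libraries the injection was cocaine (the SC group) and in 6 it was saline (the SS group), so that no mouse of either group had taken cocaine before. The injected drug was the labelled difference between the groups. Title numbers were read as mouse numbers. No batch or date was among the labels, and no dose was given. The question of the comparison was which transcripts respond in the accumbens within 1 h of a first cocaine exposure.

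Cocaine blocks the transporters that clear dopamine, and dopamine released in the accumbens acts mainly on 2 kinds of spiny projection neuron. Direct pathway neurons carry the D1 receptor, which raises cyclic AMP, and indirect pathway neurons carry the D2 receptor, which lowers it. Cyclic AMP and calcium activate kinases that phosphorylate the factor CREB, which binds cyclic AMP response elements (CREs) in the promoters of immediate early genes. These genes need no new protein synthesis to be transcribed, and Fos and its relatives are classic markers of a first psychostimulant dose. The handling and the needle of an injection can also induce them, and the saline group carries that part.

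The 11 libraries held 19765785 to 29662183 counted reads each. Levels are given in CPM, counts scaled to a common library size with the TMM factors of edgeR, and fold changes as log2 of cocaine over saline from edgeR. The labelled tissue matched its markers. The 10 markers of striatal projection neurons summed to 5211 to 7200 CPM in the SC libraries and to 3454 to 7277 CPM in the SS libraries, with no marker at 0. The lowest sum, 3454 CPM, was in the saline library NAc-094, which also had the highest sum of the 10 oligodendrocyte markers (8671 CPM, against 4420 to 7006 CPM in the other 10). In tissue RNA, fewer cells of a type and less RNA per cell cannot be told apart.

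A pair of cocaine libraries stood apart. Gm20594, a short gene of chromosome 6, had 57 counts in NAc-083 and 41 in NAc-113 and 0 counts in the other 9 libraries, where a count of 0 allows up to 3 counts, or 0.101 to 0.152 CPM. The same 2 libraries had the highest sums of 9 markers of cortical glutamatergic neurons, 275 CPM in NAc-083 and 131 CPM in NAc-113, against 9.71 to 54.0 CPM in the saline group and 11.3 to 44.5 CPM in the other 3 cocaine libraries. NAc-083 alone also held transcripts of midbrain dopamine neurons. Their 12 markers summed to 182.7 CPM there. Elsewhere the sum lay between 30.7 and 42.7 CPM, and in each of those 10 libraries 3 to 7 of the 12 were at 0. Results were therefore read again without NAc-083 and without both libraries. NAc-083 is one of the 2 libraries with Gm20594, so leaving out both conditions at once is the same as leaving out the 2 libraries.

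Of 16935 genes tested, 2 passed an adjusted p of 0.05 as higher after cocaine (0.0118%) and 0 as lower (0%). At an unadjusted p under 0.05 there were 217 genes (1.28%), 108 higher (0.638%) and 109 lower (0.644%). DESeq2 passed 1 gene as higher (0.0059%) and limma voom 0, both with 0 lower. At an unadjusted p under 0.05 DESeq2 gave 1.32% of genes, and limma voom 238 genes (1.41%). Both genes that passed in edgeR rested on the libraries that stood apart. Without NAc-083 1 of them, Gm11410, was still called (0.00587% of 17034 genes). Without NAc-083 and NAc-113 edgeR passed 0 of 17193 genes in either direction, with 466 (2.71%) at an unadjusted p under 0.05. Both calls were also lost when any 1 of the saline libraries NAc-035, NAc-073, NAc-094, NAc-122 or NAc-162 was left out, and 1 of them without NAc-052 or NAc-113.

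The first of them was Gm11410 (ENSMUSG00000083219), a processed pseudogene at chr4:80003989-80005131 on the plus strand. Its level was 0 to 0.408 CPM in the SS libraries, with a median of 0.290 CPM. In the SC libraries it was 14.9 CPM in NAc-083, 0.0415 in NAc-105, 38.1 in NAc-113, 0.501 in NAc-125 and 0.106 in NAc-161. NAc-083 and NAc-113 were high, NAc-125 lay just above the saline range and the other 2 within it. The log2 fold change was 5.42 (SE 0.911, adjusted p = 0.0128 in edgeR), and it was -0.18 without those 2 libraries (unadjusted p = 0.813).

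Gm11410 is a nuclear copy of the mitochondrial cytochrome b gene, mt-Cytb. A BLAST alignment of the GENCODE M21 transcripts matched 1142 bases at 92.9% identity with 81 mismatches and 0 gaps. The same stretch of 150 bases of both transcripts shows how alike they are. Capitals mark the 5 bases at which they differ.

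Gm11410: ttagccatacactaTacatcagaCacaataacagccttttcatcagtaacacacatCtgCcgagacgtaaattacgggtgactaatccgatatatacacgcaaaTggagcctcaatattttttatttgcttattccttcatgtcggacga

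mt-Cytb: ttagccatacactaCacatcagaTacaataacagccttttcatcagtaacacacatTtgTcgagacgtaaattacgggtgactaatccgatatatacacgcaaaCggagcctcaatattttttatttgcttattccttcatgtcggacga

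The 37 genes of the mitochondrial chromosome in the table had a count of 0 in every library. In all, 15 nuclear genes with counts matched a mitochondrial gene over at least 200 bases at 80% identity or more, and 14 of them were tested. Gm20594, by which the 2 libraries were set apart, is one of the 15 (88.4% identical to mt-Rnr2). Of the 14 tested, 3 had levels in both NAc-083 and NAc-113 above those in the other 9 libraries, as did 414 of the 16935 genes (2.44%). These were Gm11410, Gm11408 (93.6% to mt-Nd6, with 13.5 and 22.9 CPM against 1.06 to 5.26 CPM) and Gm13341 (95.9% to mt-Co2, with 9.63 and 16.2 CPM against 4.03 to 9.07 CPM). The others did not separate these libraries, whether identical or not. Gm10925, identical to mt-Atp6 over 678 bases, had 11567 and 15104 CPM in them and 4360 to 16236 CPM in the rest. Gm11407, 92.4% identical to mt-Nd5 and close to Gm11410 on chromosome 4, had 98.7 and 116 CPM in them and 70.9 to 120.1 CPM in the rest. How the reads of these genes were assigned was not tested.

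The second gene was Slc6a3, the dopamine transporter that cocaine binds, which is made in midbrain dopamine neurons. It had 62.8 CPM in NAc-083 and 0.347 to 0.847 CPM in the other 4 cocaine libraries. The saline libraries ran from 0.210 to 0.731 CPM, so that NAc-083 alone was high. The log2 fold change of 4.80 (SE 0.895, adjusted p = 0.0384 in edgeR) became 0.26 without that library (unadjusted p = 0.603). Th, the first enzyme of dopamine synthesis, had 36.0 CPM in NAc-083 and 9.41 to 18.1 CPM in the other 10 libraries. Chrna6, a nicotinic receptor subunit of dopamine neurons, had 7.53 CPM there and at most 0.136 CPM elsewhere.

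**Figure D1:**
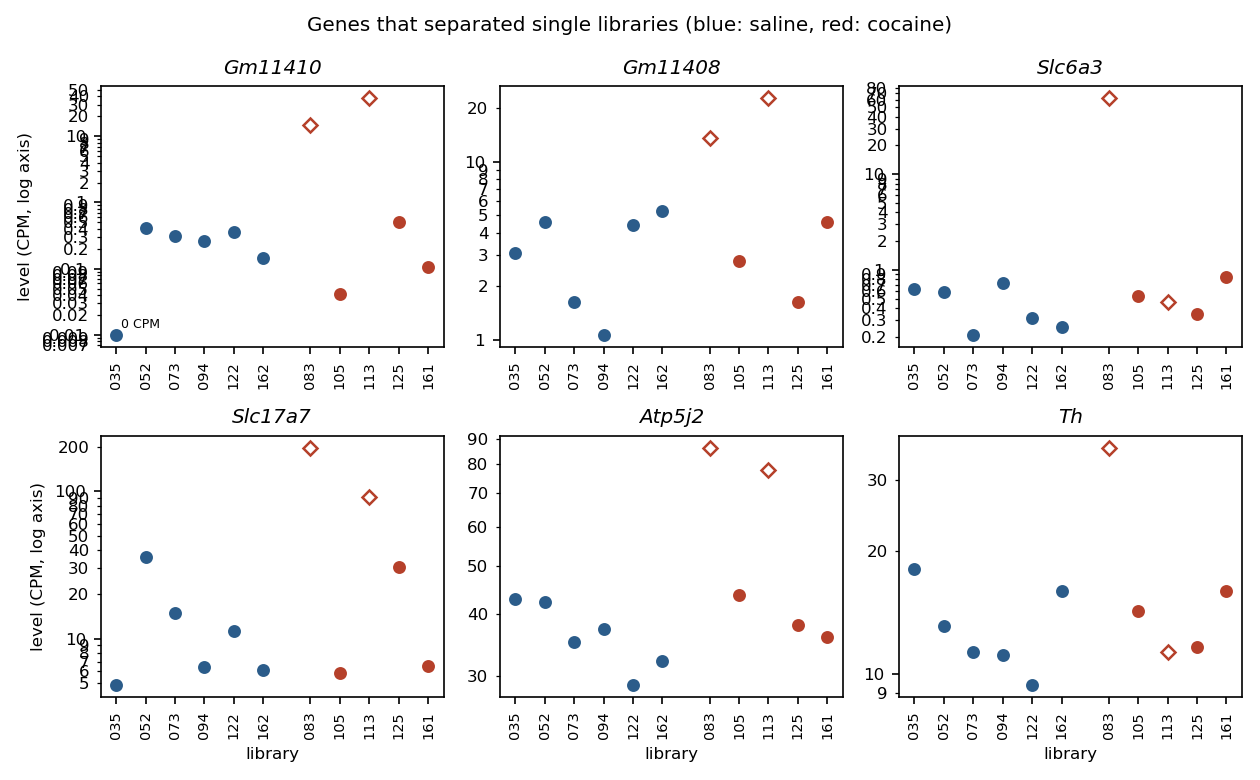
Level of 6 genes in each of the 11 libraries, in CPM on a log axis that differs between panels. Blue points are saline libraries, red points cocaine libraries, and open diamonds the 2 cocaine libraries with Gm20594, NAc-083 and NAc-113; a level of 0 is drawn at the foot of the axis. Gm11410 reaches 14.9 and 38.1 CPM in the open diamonds and at most 0.501 CPM elsewhere, while Slc6a3 and Th are high in NAc-083 only.

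The immediate early transcription factors had the largest median difference of the 14 functional lists. The 9 cortical markers had a larger one, 1.46, which was 0.14 without NAc-083 and NAc-113. All 24 tested members had a positive log2 fold change, from 0.11 for Crem to 0.90 for Nr4a2, with a median of 0.34, beside 49.5% positive and a median of 0.00 over all 16935 genes. None passed the adjusted threshold in edgeR, where the background of higher calls was 0.0118%, and 0 passed in DESeq2 or limma voom. Atf3 and Ier2 had an unadjusted p under 0.05 in edgeR, 4 members did in DESeq2 (0.579% of all genes were higher at that p) and 6 in limma voom (0.72%). The 24 genes come from the same 11 libraries, so their signs are not separate observations.

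Fos, the founding immediate early gene and a partner in the AP-1 factor, ran from 17.2 to 29.3 CPM in the SS libraries with a median of 24.7 CPM. Its SC levels were 40.8 CPM in NAc-083, 24.8 in NAc-105, 31.8 in NAc-113, 36.8 in NAc-125 and 34.2 in NAc-161. Thus 4 of the 5 cocaine libraries lay above every saline library, and NAc-105 lay inside the saline range. The group means were 33.7 ± 5.96 CPM (SD, n = 5) and 23.6 ± 4.74 CPM (SD, n = 6). The log2 fold change was 0.51 (SE 0.292, 95% interval -0.08 to 1.11, unadjusted p = 0.0873 and adjusted p = 1 in edgeR).

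Npas4, a factor induced by calcium entry in neurons, had 22.8 to 42.96 CPM after saline, with a median of 33.2 CPM. After cocaine it had 42.5, 31.6, 41.2, 64.6 and 54.7 CPM in NAc-083, NAc-105, NAc-113, NAc-125 and NAc-161. NAc-125 and NAc-161 exceeded every saline library and the other 3 overlapped them. The log2 fold change was 0.51 (interval -0.01 to 1.02, unadjusted p = 0.0537 in edgeR), and 0.61 without NAc-083 and NAc-113 (unadjusted p = 0.0495 in edgeR).

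Fosb, which also gives rise to the stable product that accumulates with repeated cocaine, ran from 25.1 to 46.1 CPM in the SS libraries (median 38.0 CPM) and had 46.2, 38.3, 43.6, 51.0 and 50.3 CPM in the SC libraries in the same order. Its log2 fold change was 0.34 (SE 0.188, unadjusted p = 0.0802 in edgeR). Junb, an AP-1 partner, ran from 41.4 to 93.1 CPM after saline and from 59.6 to 126 CPM after cocaine. Nr4a1, an orphan nuclear receptor, ran from 70.3 to 151.3 CPM after saline and from 114 to 179 CPM after cocaine. For each of the 3 genes the groups overlapped, as they did for Nr4a3 (log2 fold change 0.33, SE 0.265), a relative of Nr4a1, and for Egr2 (0.34, SE 0.333).

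Egr1, a zinc finger factor, had one of the smaller differences. It ran from 209 to 368 CPM in the SS libraries and from 251 to 371 CPM in the SC libraries, with a log2 fold change of 0.23 (interval -0.18 to 0.65). Atf3, a stress-responsive partner of Jun proteins, was low throughout, with 0.631 to 3.08 CPM after saline and 2.12 to 5.63 CPM after cocaine, and its log2 fold change of 0.88 (SE 0.374) had an unadjusted p of 0.0237 in edgeR. Nr4a2 is also a factor of midbrain dopamine neurons. Its highest level, 11.9 CPM, was in NAc-083, and its log2 fold change of 0.90 (SE 0.83) was 0.25 without NAc-083 and NAc-113.

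**Figure D2:**
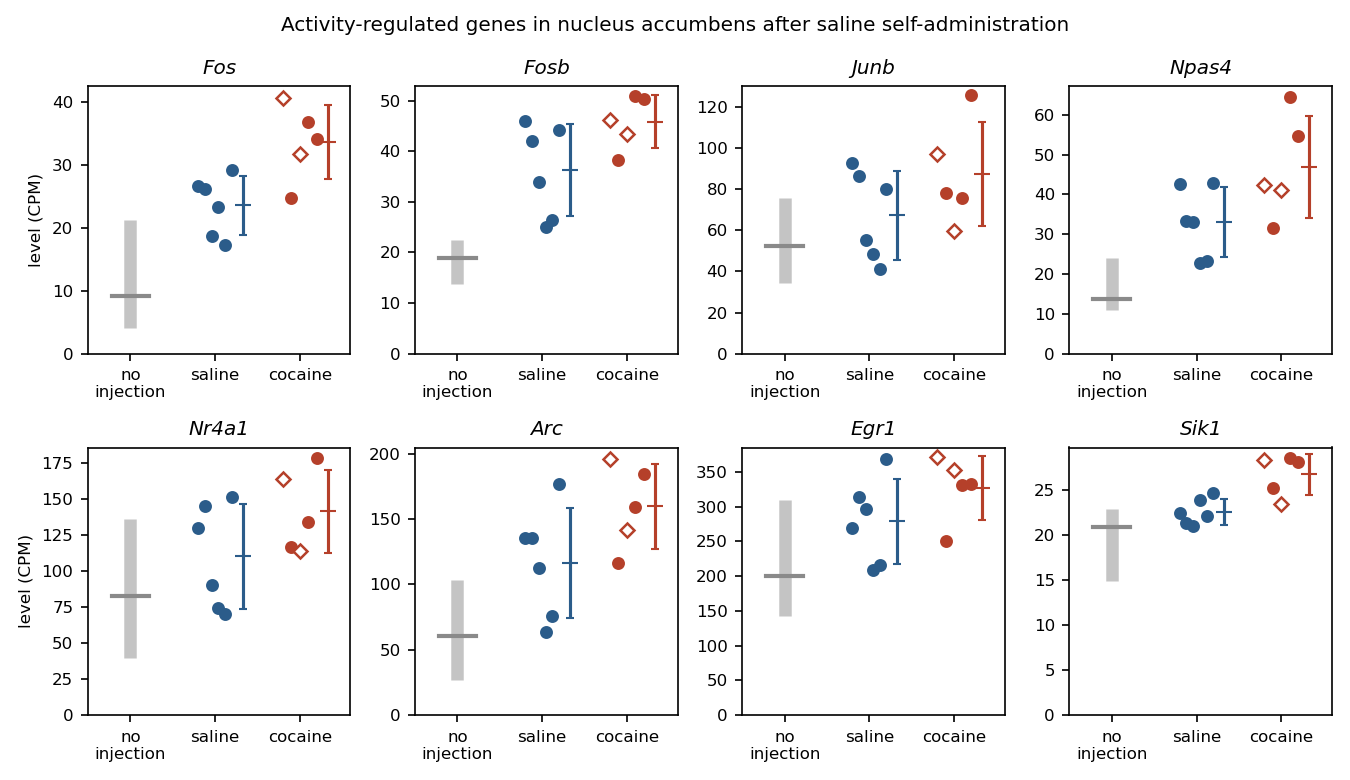
Levels in CPM of 8 activity-regulated genes in the NAc of mice that had self-administered saline. Grey bars span the lowest to the highest of 8 libraries taken without an injection at 24 h of withdrawal, with the median as a line; points are the 6 saline and 5 cocaine libraries, open diamonds are NAc-083 and NAc-113, and error bars give the mean and SD. For Fos, 4 of 5 cocaine libraries lie above the highest saline library, and in every panel the groups overlap.

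Levels of the list also varied among libraries of a group. Mean log2(CPM + 0.5) of the 24 immediate early transcription factors ran from 3.96 to 4.67 in the SS libraries, with a median of 4.40, and from 4.46 to 4.89 in the SC libraries, with a median of 4.71. The saline library NAc-094 was lowest at 3.96, with 15 of the 24 genes at their lowest level of the 11 libraries, and the saline library NAc-122 was next at 4.15. NAc-094 also had the lowest sum of striatal markers and NAc-122 the next lowest, 5089 CPM, and the part of those levels in the result was not tested. Among the cocaine libraries, NAc-083 was highest at 4.89, with 23 of 24 genes above the saline mean, and NAc-105 lowest at 4.46, with 15 of 24. NAc-105 also had the lowest striatal sum of the cocaine libraries, 5211 CPM. Summed septal, hypothalamic and thalamic markers were highest in NAc-122 (98.7 CPM), NAc-094 (97.7 CPM) and NAc-105 (74.4 CPM), with 44.1 to 67.8 CPM elsewhere. The part of these sums in the result was not tested either.

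All 24 members stayed positive when any single library was left out, and the median then ran from 0.25 without NAc-094 to 0.41 without NAc-105. Without NAc-083 and NAc-113 it was 0.29, with 23 of 24 positive (50.7% of all genes). With NAc-094 left out as well it was 0.21, with 21 of 24 positive and 0 at an unadjusted p under 0.05. Klf10, Ier5 and Crem were then negative (-0.01, -0.05 and -0.06).

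Uninjected mice give a further reference, although they were taken at 24 h of withdrawal and so differ from the SS mice in time as well as in the injection. In these 8 libraries the mean log2(CPM + 0.5) of the immediate early transcription factors ran from 3.51 to 4.31, with a median of 3.91. Fos had 4.02 to 21.2 CPM there (median 9.20 CPM) and Fosb 13.8 to 22.4 CPM, the latter below all 11 injected libraries. In mice with a cocaine history the median of Fos was 35.3 CPM after saline and 34.4 CPM after cocaine. The saline libraries of the comparison thus lay between the uninjected and the cocaine libraries by their median for Fos, Fosb, Npas4, Arc and Egr1, with the time of withdrawal and the injection not separable.

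Genes listed as activity-induced effectors, many of which act at synapses and in signalling, differed less. Of 24 tested, 20 had a positive log2 fold change, the median was 0.15, and 0 passed the adjusted threshold. Midn, a nuclear protein of protein turnover, had the smallest p, with a log2 fold change of 0.21 (SE 0.0927, unadjusted p = 0.0275 in edgeR). Arc, which controls AMPA receptor traffic, ran from 63.8 to 177 CPM in the SS libraries (median 124 CPM) and had 196, 116, 141, 159 and 184 CPM in the SC libraries from NAc-083 to NAc-161. The groups overlapped, with NAc-083 and NAc-161 above every saline library, and the log2 fold change was 0.45 (interval -0.17 to 1.08). Homer1, a postsynaptic scaffold, had a log2 fold change of 0.07 (interval -0.35 to 0.48), which was -0.13 without NAc-083 and NAc-113.

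One effector gene outside the marker list, Bdnf, followed the cortical markers. Bdnf, a growth factor that reaches the striatum largely from cortical neurons, had 5.78 CPM in NAc-083, 2.76 CPM in NAc-113 and 0.374 to 0.963 CPM in the other 3 cocaine libraries, against 0.403 to 1.23 CPM after saline. Its log2 fold change was 1.46 (SE 0.78) with these 2 libraries and -0.29 without them. Nrn1, one of the 9 cortical markers, had 27.2 and 11.8 CPM in the same libraries and 1.07 to 5.90 CPM in the other 9. Slc17a7, the vesicular glutamate transporter of cortical neurons and also one of the 9, had 197 and 91.2 CPM there and 4.88 to 35.9 CPM in the rest. Nrn1 and Slc17a7 are part of the marker sum, so their levels are not separate observations. What part the cortical transcripts have in the activity genes of these libraries was not tested; the median of the transcription factors was 0.34 with both and 0.29 without.

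Feedback kinases and phosphatases limit the signals that induce the early genes. Of 13 tested, 9 had a positive log2 fold change, with a median of 0.15. Sik1, a kinase that holds back CREB coactivators, ran from 21.03 to 24.7 CPM in the SS libraries (median 22.3 CPM). Its SC levels were 28.4, 25.2, 23.5, 28.6 and 28.2 CPM in the usual order, so that 4 of 5 exceeded every saline library and NAc-113 overlapped. The log2 fold change was 0.24 (SE 0.108, interval 0.03 to 0.46, unadjusted p = 0.0298 and adjusted p = 1 in edgeR) and 0.27 without NAc-083 and NAc-113. Per1, a clock gene with a CRE-driven promoter, ran from 132 to 201.3 CPM after saline and from 170 to 217 CPM after cocaine, with a log2 fold change of 0.22 (unadjusted p = 0.0596). Dusp1, a phosphatase of MAP kinases, had a log2 fold change of 0.19 (interval -0.15 to 0.52). Dusp2, a related phosphatase near 1 CPM, had -0.23 (SE 0.302).

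Because these genes are grouped by a shared route of induction, their promoters were read from RefSeq (build GRCm38.p6), as the 250 bases before the annotated start. Of the 24 immediate early transcription factors, 17 had an entry. The shorter CRE core TGACG was searched on both strands, and it also lies within the full palindrome TGACGTCA. It was in 12 of the 17 promoters (70.6%) and in 17.9% of 27025 promoters of all genes, and the full site was in 1 of 17, that of Btg2, and in 1.62% of all. Fos and Npas4 are shown as the members described first above, each with 2 such cores in capitals. The Fos promoter lies at chr12:85473640-85473889 on the plus strand and that of Npas4 at chr19:4989972-4990221 on the minus strand.

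Fos: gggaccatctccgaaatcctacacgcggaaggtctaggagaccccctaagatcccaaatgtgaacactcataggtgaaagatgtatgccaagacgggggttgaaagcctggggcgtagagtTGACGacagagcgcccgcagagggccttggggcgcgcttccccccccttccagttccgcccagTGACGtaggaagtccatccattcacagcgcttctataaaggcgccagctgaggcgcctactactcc

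Npas4: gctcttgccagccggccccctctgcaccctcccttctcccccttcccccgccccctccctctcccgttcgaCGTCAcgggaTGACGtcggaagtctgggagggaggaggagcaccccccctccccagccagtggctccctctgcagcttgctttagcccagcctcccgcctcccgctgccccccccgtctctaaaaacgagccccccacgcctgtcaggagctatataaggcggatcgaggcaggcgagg

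A match is a stretch of letters and no measure of binding. The same core was in 8 of the 16 heat shock promoters (50%).

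Heat shock and protein folding genes all pointed the other way. These chaperones hold or refold proteins, and many are driven by the heat shock factor through repeats of the motif GAANNTTC. All 20 tested members had a negative log2 fold change, from -0.26 for Hspb1 to -0.07 for Ahsa1, with a median of -0.12. None passed the adjusted threshold (background of lower calls 0%), and 0 had an unadjusted p under 0.05 in edgeR, DESeq2 (0.738% of all genes lower) or limma voom (0.685%). Hsp90aa1, the stress-inducible form of a major cytosolic chaperone, ran from 447 to 572 CPM after saline (median 505 CPM) and had 504, 414, 547, 454 and 289 CPM after cocaine in NAc-083, NAc-105, NAc-113, NAc-125 and NAc-161. NAc-161 was the lowest, NAc-105 was also below every saline library, and the other 3 overlapped. The log2 fold change was -0.20 (SE 0.12, unadjusted p = 0.104).

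A single library carried most of the heat shock difference. In NAc-161, 19 of the 20 genes lay below every saline library and were at their lowest level of the 11. Without that library 14 of 20 were negative and the median was -0.03. Without NAc-083 and NAc-113, which leaves NAc-161 as 1 of 3 cocaine libraries, the median was -0.26 and 7 members had an unadjusted p under 0.05, among them Hsph1 (-0.34), Hspd1 (-0.23), Chordc1 (-0.51), Dnaja1 (-0.36), Hspa4l (-0.39) and Dnajb4 (-0.31), beside 1.72% of all genes lower at that p. NAc-161 also had the lowest sum of the 8 blood cell markers, 6.99 CPM against 31.6 to 82.1 CPM in the other 10 libraries. Of these markers, Hba-a1, Hba-a2, Hbb-bs, Hbb-bt and Alas2 were at their lowest there, at 0.106 to 1.34 CPM. S100a8 was instead at its highest of the 11 libraries, 1.52 CPM. S100a9, at 2.37 CPM, was exceeded only in NAc-073, at 3.72 CPM. Slc4a1, at 0.0706 CPM, lay inside the range of the others. The highest level of Egr3, 90.1 CPM, was also in NAc-161. The part of these differences in the result was not tested. In the 8 uninjected libraries the mean log2(CPM + 0.5) of the 20 genes ran from 5.87 to 6.32. NAc-161, at 6.06, lay inside that range, and the other 10 injected libraries lay above it, at 6.57 to 7.01.

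Of the 20 heat shock genes, 16 had a promoter entry, and the motif GAANNTTC on either strand was in 6 of them (37.5%) and in 6.78% of all 27025 promoters. Dnaja1, a partner of the Hsp70 chaperones, is shown as the member with the smallest p among those with the motif when NAc-083 and NAc-113 were left out, at chr4:40722218-40722467 on the plus strand, with the motif in capitals.

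Dnaja1: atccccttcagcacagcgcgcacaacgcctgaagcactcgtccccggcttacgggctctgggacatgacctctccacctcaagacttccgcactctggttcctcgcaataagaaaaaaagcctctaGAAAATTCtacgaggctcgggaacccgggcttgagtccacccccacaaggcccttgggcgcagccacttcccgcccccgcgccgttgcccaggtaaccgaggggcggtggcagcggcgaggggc

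**Figure D3:**
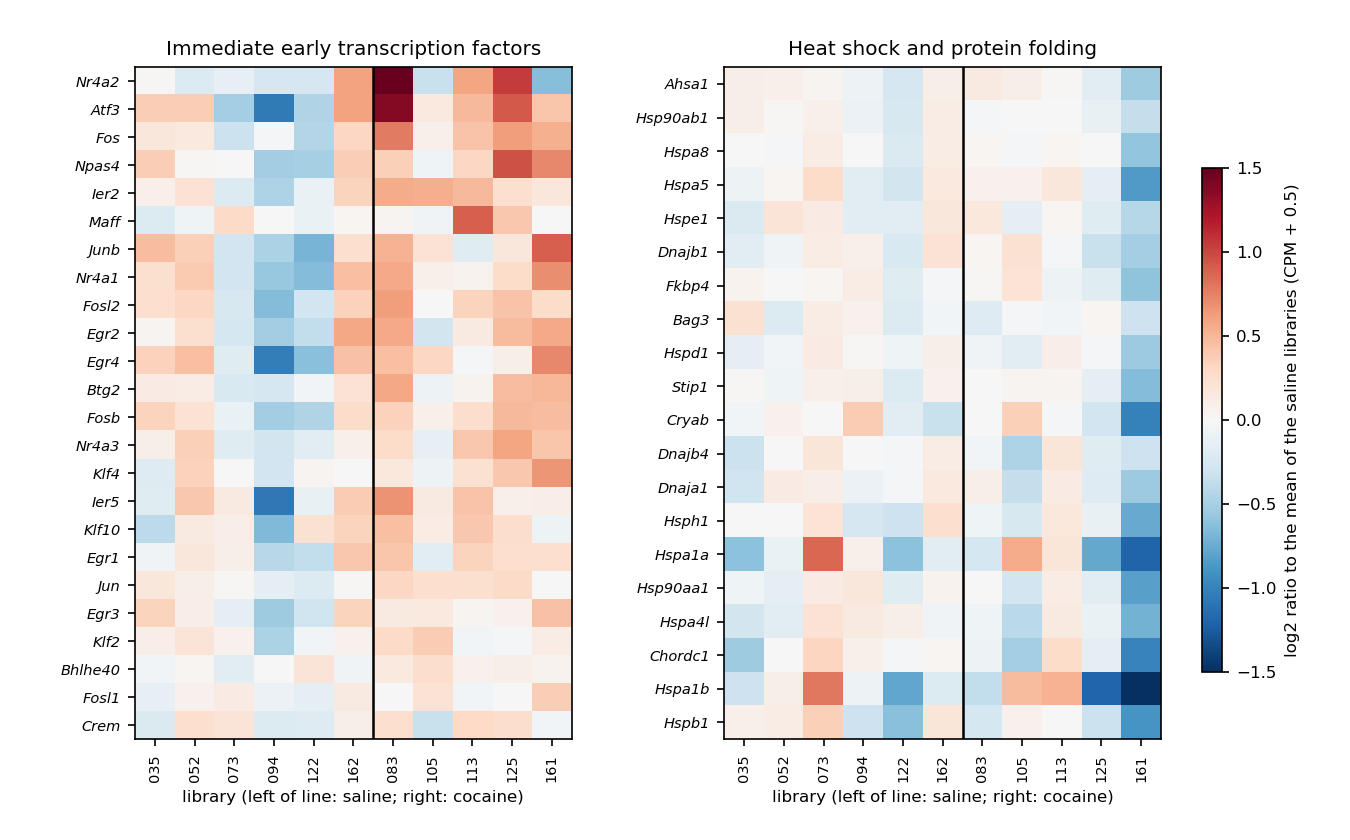
Level of each tested gene of 2 lists in each library, as the log2 ratio to the mean of the 6 saline libraries after adding 0.5 CPM; rows are genes in the order of their fold change, columns are libraries, the line divides saline (left) from cocaine (right), and colours stop at 1.5 in either direction. In the left panel the saline libraries NAc-094 and NAc-122 are low for most genes, and in the right panel NAc-161 is low for all 20 genes while NAc-083, NAc-105, NAc-113 and NAc-125 are nearer the saline mean.

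For subunits of oxidative phosphorylation encoded in the nucleus, 1 library again carried much of the difference. Of 68 tested, 62 had a positive log2 fold change, with a median of 0.07 and 0 past the adjusted threshold. In NAc-083 all 68 were above the saline mean and 56 were above every saline library. These counts were 58 and 25 in NAc-105, 41 and 10 in NAc-113, 21 and 4 in NAc-125, and 34 and 4 in NAc-161. Without NAc-083 46 of 68 were positive (48.9% of all genes) and the median was 0.03. Atp5j2, a subunit of ATP synthase, had 86.5 CPM in NAc-083, 43.8 in NAc-105, 78.1 in NAc-113, 38.0 in NAc-125 and 35.9 in NAc-161, against 28.8 to 42.9 CPM in the SS libraries. NAc-083 and NAc-113 were high, as for Gm11410, and the rest were near the saline range. Its log2 fold change of 0.63 (SE 0.243, unadjusted p = 0.0132 in edgeR) was 0.10 without them (unadjusted p = 0.683). Cox8a, a subunit of cytochrome oxidase, had 314 and 228 CPM in the same libraries and 135 to 208 CPM in the other 9. Of 52 tested cytosolic ribosomal proteins, 46 had a positive log2 fold change with a median of 0.04. Without NAc-105 24 of 52 were positive and the median was -0.0017, and with sample quality weights in limma voom 25 of 52 were positive. Rps9, a small subunit protein, had 0.10 (SE 0.124) and Ndufb2, a subunit of complex I, had -0.07 (SE 0.0902).

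All 10 markers of accumbens projection neurons had a positive log2 fold change, with a median of 0.12, and 0 passed the adjusted threshold. Without NAc-094 6 of 10 were positive and the median was 0.01. Drd1, the receptor of the direct pathway, ran from 160 to 328 CPM in the SS libraries (median 277 CPM) and from 212 to 304 CPM in the SC libraries, with a log2 fold change of 0.01 (interval -0.27 to 0.29). Drd2, that of the indirect pathway, ran from 73.5 to 155 CPM and from 112 to 136 CPM, with 0.08 (interval -0.24 to 0.40). The lowest saline level of both was that of NAc-094, and both values were negative without it (-0.10 and -0.02).

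Peptides of these neurons were alike in that none passed a test. Penk, the enkephalin precursor of indirect pathway neurons, had a log2 fold change of 0.09 (interval -0.24 to 0.41), Pdyn, the dynorphin precursor of direct pathway neurons, 0.19 (interval -0.10 to 0.48), and Tac1, the substance P precursor, 0.26 (interval -0.16 to 0.68). Over the lists, 6 of 9 direct pathway genes were positive with a median of 0.12, 6 of 7 indirect pathway genes with 0.03, 15 of 21 genes of striatal dopamine and cyclic AMP signalling with 0.06, and 6 of 8 dopamine and opioid receptors with 0.05. Without NAc-094 the signalling list turned to 7 of 21 positive and a median of -0.04, the indirect pathway list to 3 of 7 and -0.02, and the receptors to 4 of 8 and -0.00097. Chrm4, a muscarinic receptor of direct pathway neurons, had 0.19 (SE 0.141), and Lypd1, a modulator of nicotinic receptors, -0.06 (SE 0.139). Oprm1, the mu opioid receptor, had -0.10 (SE 0.301). Ppp1r1b, whose product DARPP-32 relays dopamine signals, had 614 CPM in NAc-094 and 793 to 1257 CPM in the other saline libraries, against 1045 to 1431 CPM after cocaine.

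Among 11 tested neuropeptides, 8 had a positive log2 fold change with a median of 0.11 (5 of 11 without NAc-083 and NAc-113, and 5 of 11 without NAc-162), and the largest value belonged to Adcyap1. This precursor of the peptide PACAP had 6.24 CPM in NAc-083, 2.80 CPM in NAc-113 and 0.270 to 0.291 CPM in the other 3 cocaine libraries, against 0 to 0.862 CPM after saline. Its log2 fold change of 2.35 (SE 1.07, unadjusted p = 0.0349 in edgeR) was -0.44 without the 2 libraries. Cck, a peptide abundant in cortical neurons, was also highest there, at 16.0 and 13.2 CPM, while the other 9 libraries had 3.80 to 6.81 CPM. Sst and Npy, peptides of local interneurons, had log2 fold changes of 0.04 and 0.03.

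Of 21 glutamate receptor genes tested, 8 were positive and the median was -0.04 (12 of 21 and 0.03 without NAc-105). Grik5, a kainate receptor subunit, had 0.15 (SE 0.0988). Of 25 enzymes of chromatin and DNA methylation, 10 were positive with a median of -0.01 (15 of 25 and 0.01 without NAc-083 and NAc-113). Dnmt3a, a DNA methyltransferase, had a log2 fold change of 0.01 (interval -0.19 to 0.21). Kdm6b, a histone demethylase, had 0.16 (SE 0.122) and Sirt1, a deacetylase, -0.17 (SE 0.148). Of 18 glucocorticoid-responsive genes, which report a stress hormone response, 13 were positive with a median of 0.07. Fkbp5, a chaperone of the glucocorticoid receptor, had 0.22 (interval -0.09 to 0.53), and Sgk1, a kinase induced by the hormone, had -0.08 (interval -0.39 to 0.23). No member of these 3 lists had an unadjusted p under 0.05 in edgeR.

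**Figure D4:**
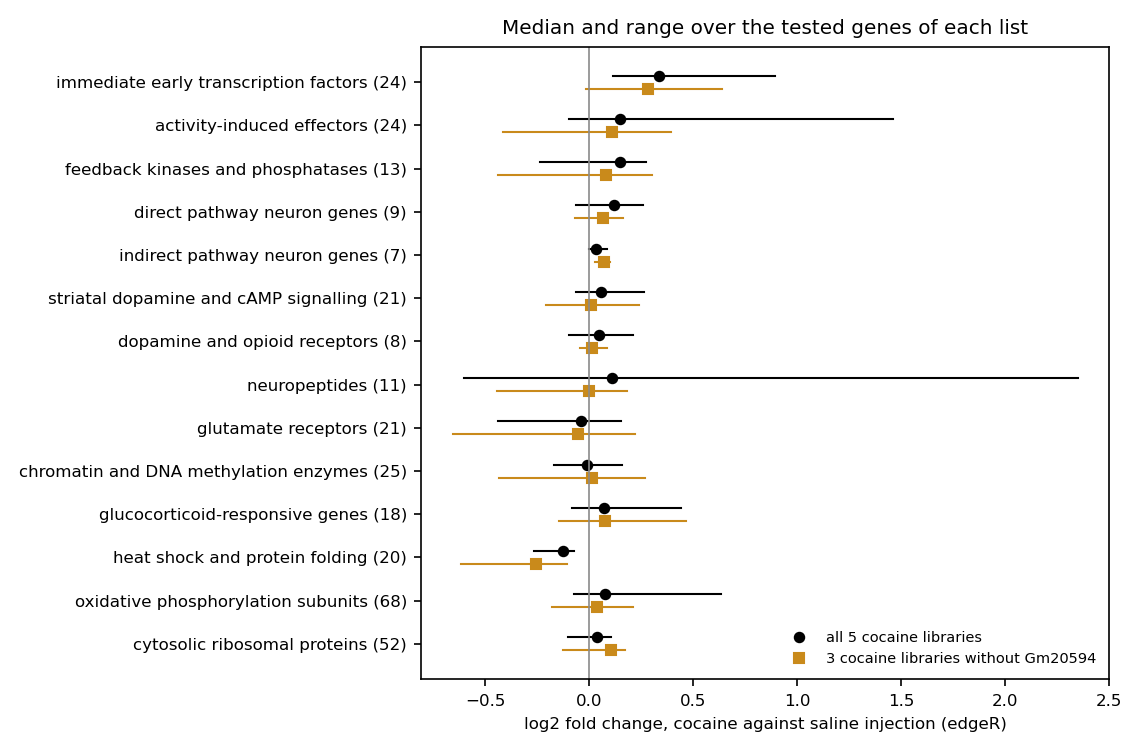
Log2 fold changes of cocaine over saline injection from edgeR for 14 gene lists, with the number of tested genes in brackets. Points give the median of a list and lines the range over its genes, black with all 5 cocaine libraries and ochre with the 3 that lack Gm20594. The immediate early transcription factors have the highest median (0.34 and 0.29) and the heat shock genes the lowest (-0.12 and -0.26).

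Genes named by their p alone, among those with a mean of at least 1 CPM, were not among the activity genes. Rec8, a cohesin subunit, had 5.41 to 11.8 CPM in the SS libraries (median 9.53 CPM) and 10.5, 13.8, 11.1, 17.4 and 12.1 CPM in the SC libraries from NAc-083 to NAc-161. In 3 of 5 cocaine libraries it exceeded every saline library, and its log2 fold change was 0.52 (SE 0.161, unadjusted p = 0.00266 and adjusted p = 1 in edgeR). The 8 uninjected libraries, at 11.96 to 20.4 CPM, all lay above the saline range and overlapped the cocaine range. Trpv4, a cation channel that responds to osmotic and mechanical stimuli, had a log2 fold change of 0.62 (SE 0.196, unadjusted p = 0.00294), and Lrg1, a secreted glycoprotein of vessels, 1.21 (SE 0.438, unadjusted p = 0.0087).

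In the other direction, Ttc26, a component of intraflagellar transport, did not overlap between groups, with 13.8 to 15.8 CPM after saline and 10.998 to 13.1 CPM after cocaine. Its log2 fold change was -0.27 (SE 0.0827, unadjusted p = 0.0021 and adjusted p = 1 in edgeR). Dpysl2, a protein of axon growth, had 189 to 235 CPM after saline and 150.8, 181, 190.8, 173 and 129 CPM after cocaine, with a log2 fold change of -0.33 (unadjusted p = 0.00371); only NAc-113 reached the saline range. Nedd1, a centrosomal protein, had -0.42 (unadjusted p = 0.00268). Zfp455, Plscr4 and Mum1l1 had -0.47, -0.48 and -0.48, each with groups that overlapped. Complete separation was rare: 19 genes (0.112%) were higher in every cocaine library than in every saline library, and 13 (0.0768%) were lower. The first included ENSMUSG00000097432, at 0.760 to 1.32 CPM after saline and 1.46 to 1.86 CPM after cocaine. Of the genes on the 14 lists, Csrnp1, a nuclear protein listed with the effectors, was the only one among them. It had 7.31 to 9.76 CPM after saline and 11.3, 9.93, 10.8, 10.4 and 12.6 CPM after cocaine, with a log2 fold change of 0.25 (unadjusted p = 0.0953 in edgeR). No gene with complete separation passed the adjusted threshold, and the share of genes that chance alone would separate was not estimated.

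The dorsal striatum (CPu) of the same treatment groups, with 6 SC and 7 SS libraries, gave values of the same sign for the early genes. There 21 of 24 immediate early transcription factors were positive (51.9% of all genes) with a median of 0.17, against 24 of 24 and 0.35 in the NAc by the same limma voom fit. By their title numbers 10 mice gave libraries to both regions, so the regions are not separate experiments. The difference between the regions passed the adjusted threshold for 0 of 16689 genes in limma voom, with 252 (1.51%) at an unadjusted p under 0.05. None of the 24 factors was among these 252. With the mouse as a block 437 genes (2.62%) had such a p. The p-values of single genes below are from the fit without the block, which leaves out that 10 mice gave both regions. For Fos the difference, NAc minus CPu, was 0.33 (unadjusted p = 0.219), for Npas4 0.49 (unadjusted p = 0.11) and for Arc 0.46 (unadjusted p = 0.135). The heat shock list was negative for 20 of 20 members in both regions, with medians of -0.18 in the CPu and -0.15 in the NAc. The mouse of NAc-161 was lowest in both regions, and its CPu library had the lowest level of the 13 for 19 of the 20 genes, with a mean log2(CPM + 0.5) of 6.09 beside 6.54 to 7.32 in the other 12. On that scale, with CPM by library total and no test, the median difference in the CPu was -0.17, and -0.09 with 20 of 20 still negative when its library was left out. The highest libraries were the saline libraries Cpu-011 (7.32) and Cpu-143 (7.16), whose mice gave no NAc library. The other saline libraries ran from 6.54 to 7.03, and the cocaine libraries without the mouse of NAc-161 from 6.66 to 7.04. The part of Cpu-011 and Cpu-143 in the remaining difference was not tested. The oxidative phosphorylation list and the list of striatal dopamine and cyclic AMP signalling had opposite median signs in the regions. In the CPu 18 of 68 and 2 of 21 members were positive (medians -0.01 and -0.04), against 60 of 68 and 15 of 21 in the NAc (0.07 and 0.08). Single NAc libraries moved the NAc values, which were read for this in edgeR and not in the limma voom fit. The NAc signalling list had 7 of 21 positive and a median of -0.04 without NAc-094, whose mouse gave no CPu library. Without NAc-083 the NAc oxidative phosphorylation list had 46 of 68 positive and a median of 0.03. Its median was smaller but kept the sign opposite to that in the CPu. No member of these lists had an unadjusted p under 0.05 for the difference between regions in limma voom without the block.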

How the data were processed

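The deposited values are counts of reads per Ensembl mouse gene, 1 column per library and 43346 genes, made by the authors with HTSeq on the build mm10, per the submitters' processing notes, which also name limma. The aligner, annotation release and strand setting are not given in the sources used here, and without strand a gene and an antisense partner cannot be told apart. Libraries were made after ribosomal RNA depletion, per the labels' protocols, while the molecule label reads polyA RNA. The withdrawal time of each library follows from its challenge label. Symbols came from GENCODE M21 for 42462 identifiers.

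All 39 NAc libraries in 6 groups were fitted with edgeR 4.0.16 in R 4.3.3 (filterByExpr with a minimum count of 10 and total of 15, TMM scaling, robust quasi-likelihood F test), and p-values were adjusted by Benjamini-Hochberg over all genes kept, with a threshold of 0.05. Regions were compared with limma 3.58.1 on voom weights. Alternatives were DESeq2 1.42.0, limma voom with and without sample quality weights, the 11 libraries alone, DESeq2 size factors, no filter, and the removal of each library, of NAc-083, and of libraries with Gm20594 above 1 CPM. Leaving out NAc-094 as well, and the CPu library of the mouse of NAc-161, were alternatives chosen after seeing the data. The scripts were tested on simulated data. The members and lists were chosen with earlier results of these data known.

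Genes were named if they passed the threshold, if they had 1 of the 8 smallest p-values in a direction at a mean of 1 CPM or more, if they were among 24 chosen activity, striatal and stress genes, if they had the smallest p of a list in a direction, or if they bore on the libraries left out (Gm20594, Gm11410, Slc6a3, Th). Others are named as members of their lists or as markers. One gene that the rule names is not reported here. The labels do not say that libraries of a group came from separate animals. With the title number taken as the mouse, 10 mice gave both NAc and CPu libraries; the deviations of their libraries from the group means had a median correlation of 0.167, above 0.1 in 7 of 10. P-values measure the spread between libraries, and counts of 0 cover counting error only.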

Additional observations from a re-analysis of the deposited data

Results flagged for a closer look

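Among the groups of 4 to 10 libraries examined, 14 (7.69%) held a library far from the others by Dixon's criterion, which chance alone meets in about 1 of 20 groups. Among the cocaine libraries, NAc-083 stood apart in Slc6a3 (62.8 CPM), Th (36.0 CPM) and the summed midbrain dopamine neuron markers (182.7 CPM). NAc-161 stood apart in Egr3 (90.1 CPM, the others 68.3 to 73.5 CPM) and in Rfk, a riboflavin kinase (41.4 CPM, the others 47.5 to 49.96 CPM). NAc-105 stood apart in the summed markers of oligodendrocyte precursors (489 CPM, the others 343 to 365 CPM). Its mean log2(CPM + 0.5) was also low for the direct pathway genes (5.97, the others 6.16 to 6.19) and for the dopamine and opioid receptors (4.71, the others 4.93 to 5.01).

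Among the saline libraries, NAc-094 was low in the same 2 lists, at 5.56 for the direct pathway genes (the others 6.01 to 6.19) and 4.45 for the receptors (the others 4.81 to 5.02). NAc-035 was high in Zfp784, a zinc finger gene (5.32 CPM, the others 3.65 to 4.27 CPM), and NAc-073 was low in Dok2, an adaptor protein (0.892 CPM, the others 1.65 to 1.91 CPM). NAc-052 had the highest summed cortical markers of its group (54.0 CPM, the others 9.71 to 26.1 CPM). NAc-162 had the lowest summed markers of parvalbumin and somatostatin interneurons (356 CPM, the others 435 to 463 CPM).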

How the results depend on the processing

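Genes higher after cocaine numbered 2 in edgeR, 1 in DESeq2 and without NAc-083, and 0 with the 11 libraries alone, limma voom, limma voom with sample quality weights, no filter on low counts, without the libraries with Gm20594, and without these and NAc-094. Leaving out 1 library at a time gave 0 to 2 (0 without NAc-035, NAc-073, NAc-094, NAc-122 or NAc-162). With 5 and 6 libraries, their number limits the precision, and differences inside the printed intervals were not detectable.

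Log2 fold changes turned in sign without the Gm20594 libraries, and then without NAc-094 as well, for Gm11410 (-0.18, -0.15), Gm11408 (-0.15, -0.35), Homer1 (-0.13, -0.22), Bdnf (-0.29, -0.32), Drd1 (-0.046, -0.16), Adcyap1 (-0.44, -0.50), Rpl10a (0.095, 0.066) and Sp9 (0.095, 0.024). With NAc-094 also left out they turned for Drd2 (-0.026), Tac1 (-0.10), Rxrg (-0.0062), Oprd1 (-0.10) and Crh (0.032). Sample quality weights turned Drd1 (-0.037) and Errfi1 (0.0080). Sp9 was 0.0082 in limma voom, 0.0086 without the filter and 0.041 without NAc-083. Leaving out 1 library gave -0.032 to 0.21 for Homer1, -0.10 to 0.082 for Drd1, -0.024 to 0.17 for Drd2, -0.066 to 0.043 for Sp9 and -0.085 to 0.0057 for Bcl11b. The causes were not tested.

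The difference between regions passed for 0 genes with the mouse as a replicate block, as without it, and the count at an unadjusted p under 0.05 was 437 against 252 in limma voom.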
